A study of Mus musculus with 8 samples.

Results

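The BTB zinc finger factors are transcription factors that carry a BTB domain, through which they pair and recruit corepressors, and C2H2 zinc fingers, through which they bind DNA. Bcl6, the repressor that directs follicular helper T cells, belongs to this family, and several relatives set T cell fates. Zbtb7b (ThPOK) commits thymocytes to the CD4 lineage and keeps CD8 genes off, and Zbtb16 (PLZF) directs innate-like T cells. The genes described here are those measured through a cluster with 1 symbol that begins with Zbtb and a digit, or that is Bcl6b, Patz1, Hic1 or Hic2, and Bcl6 itself is left out. They number 46 of the 19938 genes tested, read through 49 clusters. The symbols of 2 of them, Zbtb8os and Zbtb11os1, only mark a gene that lies opposite a family member, so 44 are named for a BTB zinc finger factor.

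The 8 arrays, of Affymetrix's whole-transcript design, each read RNA of naive CD4 T cells from mice. Cells of both groups were first stimulated through CD3 and CD28 with antibodies for 24 hours. The groups were mice with a deletion of Bcl6 in T cells only (Bcl6 cKO, n = 4) and wild-type mice (WT, n = 4). The samples carry the tag Tf0, whose meaning is not given in the sources used here, nor are the Cre driver, the strain, the age and sex of the mice, or whether each sample is a separate mouse, so p-values measure only the spread between these samples. Values are log2 signals, and differences are Bcl6 cKO minus WT on that scale.

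The signal of Bcl6 was 9.05, 8.67, 8.83 and 8.40 in Bcl6 cKO, against 8.47, 8.33, 8.56 and 8.10 in WT (p = 0.0857 in a two-sided exact permutation test, which can give no p below 0.0286). Its mean was higher in Bcl6 cKO, by 0.37 (limma unadjusted p = 0.0188, adjusted p = 0.337), and by 0.57 with sex as a term (adjusted p = 0.145). Bcl6 was read through 1 cluster, and since the sources used here do not say which exons were removed, this signal checks nothing about the labels. Over all genes 21 were higher and 23 lower at an adjusted p of 0.05 in limma, 19 and 13 after centring each array on its median, and 23 and 17 after quantile normalization. The Y-linked genes were high on 1 Bcl6 cKO array (replicate 1) and 3 WT arrays (replicates 1 to 3) and low on the other 3 Bcl6 cKO arrays and on WT replicate 4, so sex differed between the groups. WT replicate 4 also had the lowest array weight (0.367, others 0.759 to 1.49). The CD4 T cell markers Cd4, Cd3d, Cd3e, Cd28, Cd5 and others (8 of 9 measured) lay between 11.18 and 13.20 on all arrays, with array means of 12.45 to 12.57 in Bcl6 cKO and 12.58 to 12.62 in WT, while B cell markers did not exceed 7.63 and myeloid and dendritic cell markers 8.42. The CD8 T cell marker Cd8b1 lay between 10.41 and 11.12 on all arrays, lower in Bcl6 cKO, and Cd8a between 6.90 and 7.14. Of the NK cell markers 3 of 5 stayed under 5.83 on every array. That value was the highest signal of Y-linked genes on arrays where those were low. Of the other NK cell markers Ncr1 reached 5.87, and Eomes lay between 7.55 and 8.90.

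No family member passed an adjusted p of 0.05 over all genes in limma, where 0.221% of all genes passed. The smallest adjusted p of a member was 0.0898, that of Zbtb4. At an unadjusted p of 0.05 there were 5 of 46 members (10.9%), against 10.8% of all genes, so the family had about the same share as the rest of the array. The count was 8 members (17.4%) with array weights, against 13.4% of all genes in that fit, and 8 with sex as a term, against 9.97%. It was 8 without Bcl6 cKO replicate 2, against 10.9%. Among genes with a mean signal at or above the median it was 5 of 41 members (12.2%), against 17.4% of those genes. All 5 of the fit on 8 arrays were lower in Bcl6 cKO (Zbtb4, Zbtb20, Zbtb7b, Zbtb26 and Zbtb11os1), where 6.17% of all genes were lower and 4.67% higher at this p. In 4 members the 4 Bcl6 cKO arrays all lay below the 4 WT arrays (8.7% of the members). Of all genes 5.97% had separate groups, 3.64% lower and 2.33% higher, and no member was higher with separate groups. The mean was lower in Bcl6 cKO for 30 of the 46, against 48.8% of all genes. The median difference of the members was -0.03, and that of all genes 0.00. Between samples of a group members had SDs of 0.0126 to 0.308 in Bcl6 cKO and 0.0173 to 0.211 in WT, the widest being those of Zbtb20 and Bcl6b. Their median SD was 0.0828 in Bcl6 cKO and 0.0709 in WT, against 0.0826 and 0.092 for all genes.

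**Figure D1:**
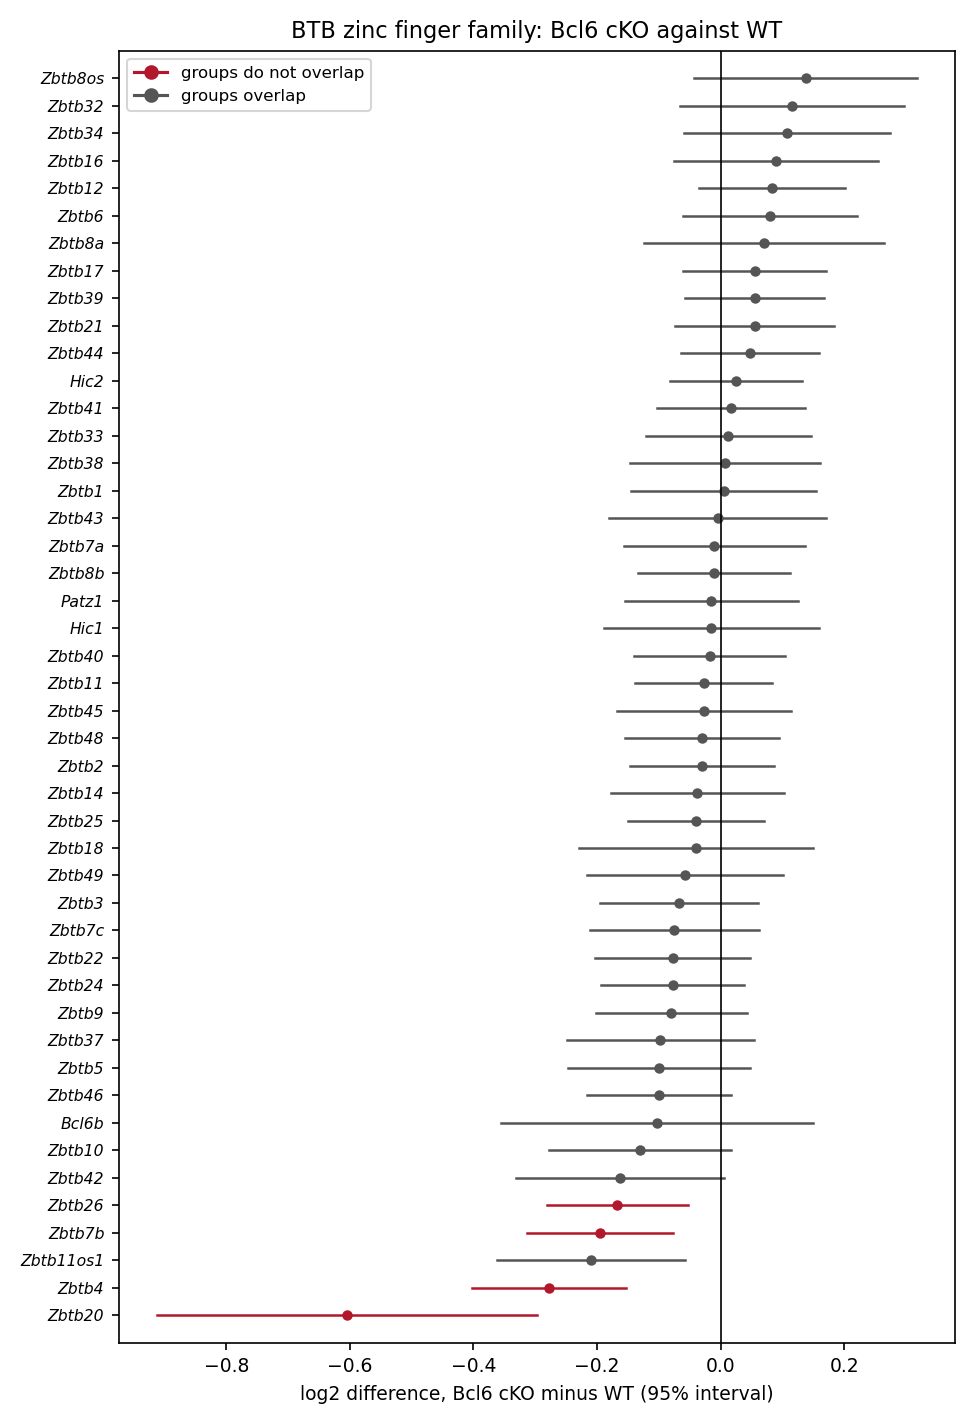
Log2 difference of each of the 46 members, Bcl6 cKO minus WT, with its 95% interval from limma (n = 4 arrays each), ordered by the difference. The 4 members in red, whose groups do not overlap, are all lower in Bcl6 cKO, and the other intervals include 0 except that of Zbtb11os1.

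Zbtb20 had the largest difference of the family. It encodes a repressor known for silencing alpha-fetoprotein in the liver and for its role in plasma cells. Its signal was 8.60, 8.44, 7.98 and 8.02 in Bcl6 cKO replicates 1 to 4, against 8.72, 8.94, 8.73 and 9.07 in WT replicates 1 to 4. All Bcl6 cKO arrays lay below all WT arrays, by a wide margin in replicates 3 and 4 and a narrow one in replicate 1. The difference was -0.61 (SE 0.139, 95% interval -0.91 to -0.30), so that the signal in Bcl6 cKO was 0.657 times that in WT, and it did not pass over all genes (limma adjusted p = 0.13). A second Zbtb20 cluster, read by other probes, gave 8.17, 8.08, 7.46 and 7.78 in Bcl6 cKO, against 8.43, 8.55, 8.39 and 8.81 in WT. Its difference was -0.67 (adjusted p = 0.122 over all clusters with 1 symbol), with the arrays in nearly the same order. The mean in Bcl6 cKO was 8.26 in the first cluster and 7.87 in the second. The heart gene Tnnt2, the brightest of 19 genes of other organs, had a mean of 8.25. Zbtb20 signal in Bcl6 cKO was thus not shown to stand above background, which limits the ratio of 0.657.

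Without Bcl6 cKO replicate 1, Zbtb20 (difference -0.72, adjusted p = 0.0425) and Zbtb4 (-0.31, adjusted p = 0.0487) passed in limma, and in none of the other 7 fits without 1 array did any member pass. That replicate is the Bcl6 cKO array with high Y-linked signal, and it was the highest of its group for Zbtb20, Zbtb4, Zbtb7b and Zbtb26. With sex as a term the difference of Zbtb20 was -0.56 (adjusted p = 0.352). The 1 WT array with low Y-linked signal, replicate 4, had the highest Zbtb20 signal (9.07) and the lowest array weight (0.367). Where Y-linked signal was high (1 Bcl6 cKO and 3 WT arrays) the difference of Zbtb20 was -0.20, and where that signal was low (3 and 1) -0.92. The test of the difference between these 2 values did not pass (limma interaction, adjusted p = 0.376).

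Zbtb20 lies on chromosome 16, which also carries Bcl6, 137 tested genes after it in the gene order of the RefSeq table (GRCm38.p6). Among the 200 tested genes after Bcl6, 10 (5%) passed an adjusted p of 0.05, against 0.221% of all genes. Of the 10 tested genes on each side of Zbtb20, B4galt4, a galactosyltransferase gene, was the 1 that passed, and it was higher in Bcl6 cKO (difference 1.25, adjusted p = 0.0014). Next to it Arhgap31 had a difference of 0.39 (adjusted p = 0.0673) and, 2 places further, Poglut1, a glycosyltransferase gene, one of 0.12 (adjusted p = 0.426), both with the Bcl6 cKO arrays above all WT arrays. Mir568, a microRNA gene 3 places after Zbtb20, was at 5.68 in Bcl6 cKO and 6.05 in WT on average (adjusted p = 0.188). Tigit, a coinhibitory receptor gene 2 places after Zbtb20, had a difference of 0.27 (adjusted p = 0.728). The deletion of Bcl6 and alleles linked to it on this chromosome cannot be told apart here.

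**Figure D2:**
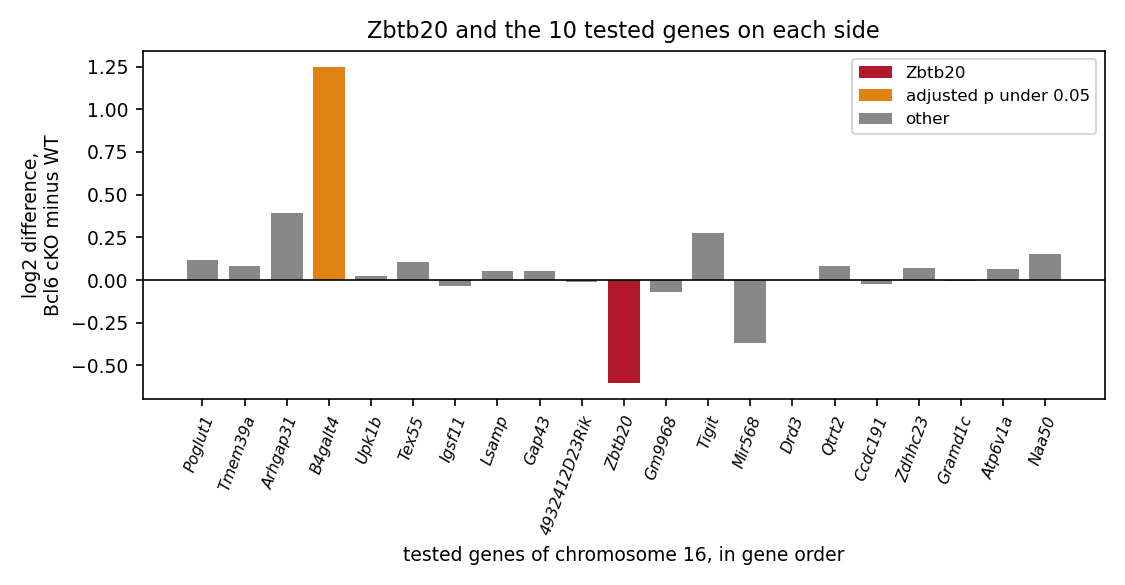
Log2 difference (Bcl6 cKO minus WT, n = 4 arrays each) of Zbtb20 and the 10 tested genes on each side of it on chromosome 16, in gene order. Zbtb20 (-0.61) points down, B4galt4 (1.25) is the bar that passed an adjusted p of 0.05, and most other bars are short.

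The other 4 members on chromosome 16 differed less than Zbtb20. Zbtb11os1, a long non-coding RNA gene opposite Zbtb11, had 7.67, 7.82, 7.63 and 7.84 in Bcl6 cKO, against 7.82, 8.04, 7.93 and 8.01 in WT. The groups overlapped at WT replicate 1, and the difference was -0.21 (95% interval -0.36 to -0.06, adjusted p = 0.284). Zbtb11, on the other strand, was at 10.94 ± 0.05 in Bcl6 cKO and 10.97 ± 0.05 in WT (SD, n = 4 each). Zbtb21 had a difference of 0.06 and Hic2, a relative of the tumour suppressor Hic1 that lies before Bcl6 in the gene order, one of 0.03.

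Regulatory T cell markers also had lower means in Bcl6 cKO, though no marker of the 3 reached an adjusted p of 0.05. The mean of Foxp3, Gpr83 and Ikzf2 lay between 8.50 and 8.81 on the Bcl6 cKO arrays and between 9.19 and 9.52 on the WT arrays. Foxp3, the factor that defines these cells, had 9.17, 9.31, 8.83 and 9.60 in Bcl6 cKO, against 9.86, 9.82, 9.61 and 9.61 in WT (difference -0.50, adjusted p = 0.199). Gpr83 had a difference of -1.20 (adjusted p = 0.0664) and Ikzf2 one of -0.25 (adjusted p = 0.489). Within Bcl6 cKO, Foxp3 and Zbtb20 were both lowest in replicate 3, but Foxp3 was highest in replicate 4, where Zbtb20 was at 8.02. Gpr83 and Zbtb20 were both highest within Bcl6 cKO in replicate 1. Within WT, Gpr83 was lowest in replicate 4, where Zbtb20 was highest. In RNA of whole samples fewer cells of a type and less RNA per cell cannot be told apart. The part of these markers in the differences of the family was not tested.

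Zbtb4 had the smallest p of the family. It encodes a zinc finger protein that binds methylated CpG sites and represses transcription. Its signal was 8.74, 8.70, 8.54 and 8.57 in Bcl6 cKO, against 8.91, 8.91, 8.90 and 8.94 in WT. The WT arrays lay almost on 1 value, and every Bcl6 cKO array was below them. The difference was -0.28 (SE 0.0564, 95% interval -0.40 to -0.15), and -0.25 with sex as a term (adjusted p = 0.305). The other factors of the family that bind methylated DNA had overlapping groups. Zbtb33 (Kaiso) differed by 0.01 (95% interval -0.12 to 0.15) and Zbtb38 by 0.01 (-0.15 to 0.16).

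Zbtb7b, the CD4 lineage factor, had 10.20, 10.09, 10.10 and 10.07 in Bcl6 cKO, against 10.35, 10.31, 10.36 and 10.22 in WT. The groups were separate by little, with Bcl6 cKO replicate 1 just below WT replicate 4. The difference was -0.20 (SE 0.0534, 95% interval -0.31 to -0.08, adjusted p = 0.196), and -0.14 with sex as a term (adjusted p = 0.414). Zbtb26 had 9.48, 9.41, 9.35 and 9.35 in Bcl6 cKO, against 9.52, 9.63, 9.57 and 9.54 in WT. Here too the groups came close, with a difference of -0.17 (95% interval -0.28 to -0.05, adjusted p = 0.255). These 5 members had an unadjusted p under 0.05 in each of the 8 fits without 1 array, and all 8 of those fits gave Zbtb7b, Zbtb26 and Zbtb11os1 an adjusted p of 0.139 or more.

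**Figure D3:**
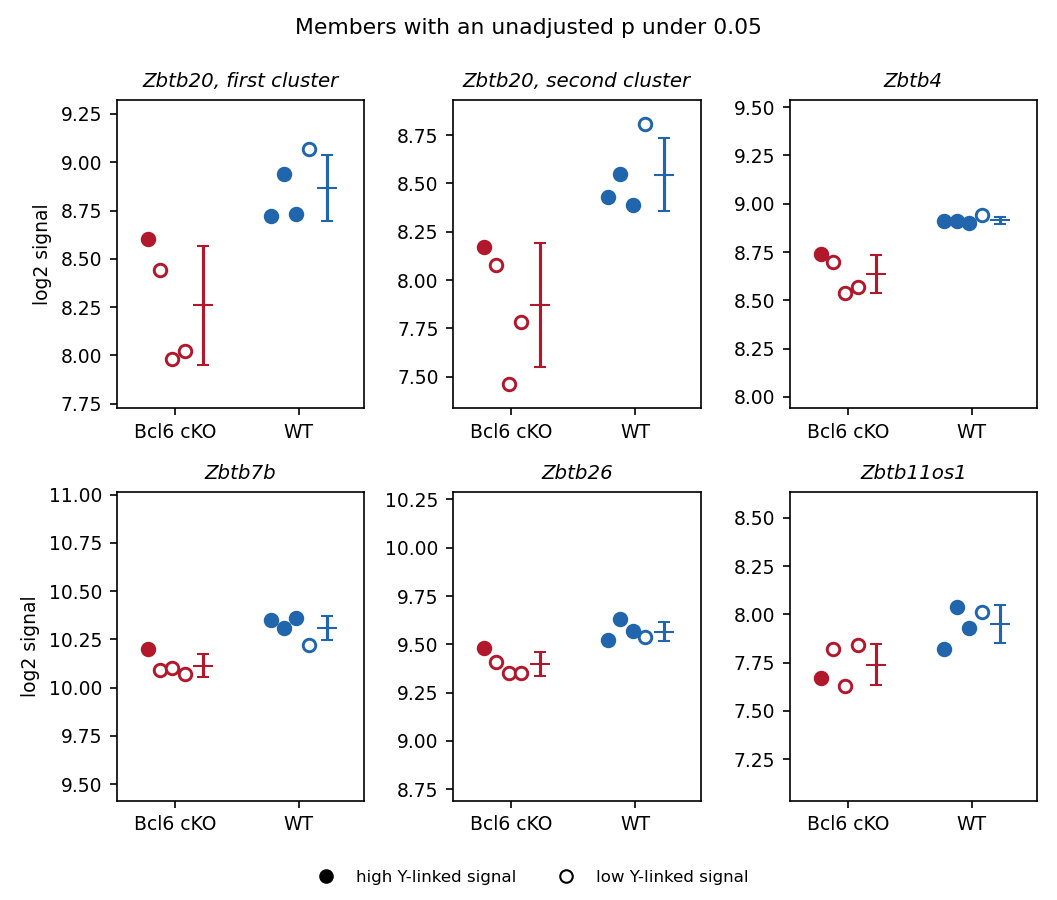
Log2 signal of both Zbtb20 clusters, Zbtb4, Zbtb7b, Zbtb26 and Zbtb11os1 on each array, Bcl6 cKO left of WT, with the mean and SD of each group (n = 4). Filled points are arrays with high and open points arrays with low Y-linked signal. The groups are separate in all panels but that of Zbtb11os1, and the filled Bcl6 cKO point is the highest of its group in all panels but that one.

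The promoters of the 4 members with separate groups are shown because these genes gave the clearest differences of the family. The sequences are the 250 bases before each RefSeq start (GRCm38.p6, written 5′ to 3′ on the gene's strand), with CpG sites in capitals. The last line is the 1 match, in capitals, to the palindrome TTCNNNGAA, to which Bcl6 and STAT factors bind, in any window of the family.
Zbtb20, chr16:43247034-43247283, plus strand: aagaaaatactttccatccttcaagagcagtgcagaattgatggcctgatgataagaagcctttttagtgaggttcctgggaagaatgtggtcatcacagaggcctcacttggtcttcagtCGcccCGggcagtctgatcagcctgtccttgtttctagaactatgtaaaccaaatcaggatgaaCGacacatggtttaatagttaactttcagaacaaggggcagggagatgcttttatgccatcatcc
Zbtb4, chr11:69765662-69765911, plus strand: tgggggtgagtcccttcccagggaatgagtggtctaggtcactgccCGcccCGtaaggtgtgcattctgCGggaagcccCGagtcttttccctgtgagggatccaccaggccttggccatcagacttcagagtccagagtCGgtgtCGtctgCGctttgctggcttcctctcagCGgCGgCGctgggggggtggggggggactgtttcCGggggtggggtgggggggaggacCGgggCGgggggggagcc
Zbtb7b, upstream start, chr3:89393379-89393628, minus strand: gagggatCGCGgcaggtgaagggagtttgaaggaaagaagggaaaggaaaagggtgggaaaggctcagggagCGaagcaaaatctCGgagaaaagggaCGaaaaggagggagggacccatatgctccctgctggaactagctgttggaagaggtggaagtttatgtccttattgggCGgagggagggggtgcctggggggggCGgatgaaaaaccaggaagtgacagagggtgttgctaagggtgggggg
Zbtb7b, downstream start, chr3:89387672-89387921, minus strand: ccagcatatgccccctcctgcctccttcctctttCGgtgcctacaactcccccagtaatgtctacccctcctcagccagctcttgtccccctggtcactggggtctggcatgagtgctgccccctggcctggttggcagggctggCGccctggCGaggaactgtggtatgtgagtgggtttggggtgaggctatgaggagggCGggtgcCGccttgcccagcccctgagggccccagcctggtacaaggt
Zbtb26, chr2:37443173-37443422, minus strand: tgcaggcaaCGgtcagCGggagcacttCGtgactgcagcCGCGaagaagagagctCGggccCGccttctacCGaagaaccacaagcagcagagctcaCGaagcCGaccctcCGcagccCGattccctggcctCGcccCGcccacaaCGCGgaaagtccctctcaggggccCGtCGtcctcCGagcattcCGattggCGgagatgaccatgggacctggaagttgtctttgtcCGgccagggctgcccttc
Zbtb20 match, chr16:43247306-43247333, plus strand: ctgaagtctgTTCTGAGAAcatttacag
Windows of 300 bases, 250 before to 50 after a start, were given for 40 of the 46 members (55 windows). The palindrome reads the same on both strands. It was present in 1 of the 55 windows (1.82%), against 8.3% of the 32851 windows of all genes, and the match begins 33 bases after the start of Zbtb20. The narrower TTCCTAGAA was in none of the family's windows, against 0.411% of all windows. A match is a description of these letters and no evidence of binding, and no match says only that the letters are not in this window.

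The family's promoters are rich in CpG sites. The ratio of observed to expected CpG was above 0.6 in 41 of the 55 windows (74.5%), against 35.8% of the windows of all genes, with medians of 0.764 and 0.384. Among the members with separate groups it was 0.213 for Zbtb20, 0.51 and 0.233 for the 2 starts of Zbtb7b, 0.647 for Zbtb4 and 0.763 for Zbtb26. The bases printed show this, with 3 CpG sites before the start of Zbtb20 and 22 before that of Zbtb26.

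Of the 12 members with known or proposed roles in T cells, Zbtb20 and Zbtb7b, described above, had separate groups, as had 5.97% of all genes. The groups overlapped for the other 10, and the differences of these 10 lay between -0.10 and 0.12. Their 95% intervals together span -0.35 to 0.30. Zbtb7a (LRF), which acts with Zbtb7b in CD4 commitment, had 9.23, 9.29, 9.13 and 9.12 in Bcl6 cKO, against 9.24, 9.16, 9.33 and 9.08 in WT, a difference of -0.01 (95% interval -0.16 to 0.14). Patz1 (MAZR), a repressor of Cd8 in early thymocytes, had 10.10, 10.23, 10.19 and 10.23 in Bcl6 cKO, against 10.18, 10.33, 10.23 and 10.07 in WT. Its groups covered the same range, with a difference of -0.02 (95% interval -0.16 to 0.13).

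Zbtb17 (Miz1), the partner through which Myc represses genes, had a difference of 0.06 (95% interval -0.06 to 0.17). Zbtb1, needed for lymphoid development, had one of 0.01 (-0.15 to 0.16), with 10.79, 10.80, 10.71 and 10.61 in Bcl6 cKO, against 10.60, 10.81, 10.66 and 10.82 in WT. Its neighbour Zbtb25 differed by -0.04 (-0.15 to 0.07). Zbtb32 (PLZP or ROG), which restrains Gata3 and cytokine production, had 8.33, 8.34, 8.50 and 8.66 in Bcl6 cKO, against 8.47, 8.35, 8.33 and 8.22 in WT. Bcl6 cKO replicate 4 was the highest and WT replicate 4 the lowest, the groups overlapped, and the difference was 0.12 (-0.07 to 0.30, adjusted p = 0.685). Zbtb18 (RP58), a repressor best known from the developing brain, differed by -0.04, with Bcl6 cKO replicate 2 at 8.91 and the other Bcl6 cKO arrays at 8.49 to 8.57, against 8.59 to 8.70 in WT.

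The last 3 of these members were dim. Of the family, 13 members had a mean over the 8 arrays below 8.25. That was the mean of Tnnt2, the brightest of 19 genes of other organs, so the signal of these 13 was not shown to stand above background. They were Bcl6b, Hic1, Hic2, Zbtb3, Zbtb5, Zbtb7c, Zbtb8b, Zbtb10, Zbtb11os1, Zbtb12, Zbtb16, Zbtb42 and Zbtb46. All 46 members lay above 5.83 on every array. Zbtb16 had 7.31, 7.16, 7.32 and 7.17 in Bcl6 cKO, against 7.03, 7.11, 7.11 and 7.35 in WT (difference 0.09, 95% interval -0.07 to 0.25). Bcl6b, the closest relative of Bcl6, had 7.45, 7.18, 7.57 and 7.22 in Bcl6 cKO, against 7.60, 7.19, 7.65 and 7.39 in WT (difference -0.10, 95% interval -0.35 to 0.15). Hic1 had a difference of -0.02 (-0.19 to 0.16). Zbtb46, a marker of classical dendritic cells, was at 7.48 ± 0.06 in Bcl6 cKO and 7.58 ± 0.06 in WT (SD, n = 4 each).

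**Figure D4:**
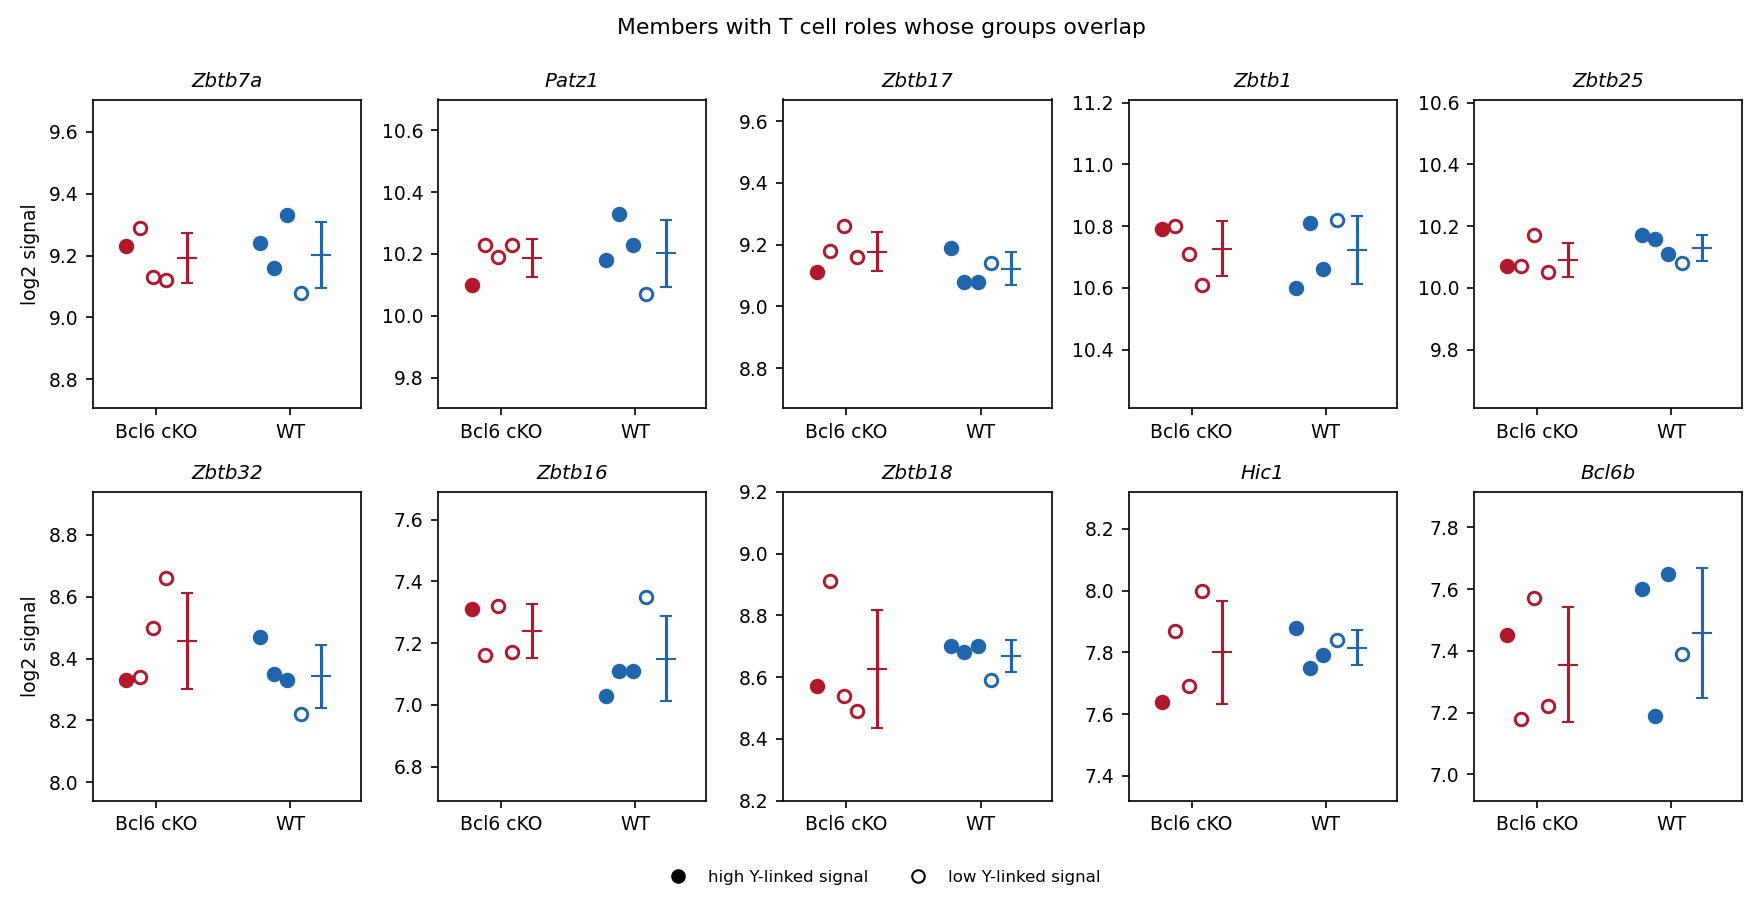
Log2 signal of the 10 members with T cell roles whose groups overlap, on each array, Bcl6 cKO left of WT, with the mean and SD of each group (n = 4). Filled points are arrays with high and open points arrays with low Y-linked signal. The members were picked for this overlap, so common ranges in every panel follow from the choice. The means differ by 0.12 or less.

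Of the members whose values are not given above, Zbtb42 had the largest difference, at -0.16 (95% interval -0.33 to 0.01, adjusted p = 0.48), with 7.90, 7.85, 7.81 and 7.95 in Bcl6 cKO, against 7.90, 8.09, 7.93 and 8.24 in WT. In all, 43 of the 46 differed by less than 0.2 and 33 by less than 0.1 in either direction, and the 95% interval lay within 0.25 of 0 for 33 members. The largest positive differences were those of Zbtb8os, which encodes a protein of tRNA ligation, at 0.14 (95% interval -0.04 to 0.32), of Zbtb32, and of Zbtb34 at 0.11 (-0.06 to 0.27). Members with roles at telomeres and in genome maintenance, Zbtb48, Zbtb10, Zbtb24, Zbtb40, Zbtb1 and Zbtb7a, had a median difference of -0.02, none with an unadjusted p under 0.05, Zbtb10 being the lowest of them at -0.13. Zbtb6 and Zbtb26, next to each other on chromosome 2, differed by 0.08 and -0.17, and Zbtb34 and Zbtb43, also neighbours there, by 0.11 and -0.01.

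Other genes of the pathways in which these factors act were read from 6 lists, with 73 genes measured. None passed an adjusted p of 0.05 over all genes in limma. Of the 73, 7 higher and 9 lower had an unadjusted p under 0.05, where 4.67% of all genes were higher and 6.17% lower. The lists were chosen with earlier results of these data known, so these counts and those of each list only describe them. Of 19 corepressors shared by the family, 3 were higher and 2 lower at that p, with a median difference of -0.03. The histone deacetylase gene Hdac1 had 12.45, 12.41, 12.43 and 12.38 in Bcl6 cKO, against 12.20, 12.21, 12.01 and 12.16 in WT, with no overlap (difference 0.27, adjusted p = 0.0911). Bcor, a corepressor of Bcl6, had a difference of -0.16 (adjusted p = 0.327). A list of 9 other genes with a BTB domain was kept apart from the family by the rule on symbols alone. None of the 9 had an unadjusted p under 0.05, and Bach1 had a difference of -0.22 and Gzf1 one of -0.12.

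The genes around Zbtb7b in the choice between CD4 and CD8 fates numbered 12, of which 2 were lower and none higher at an unadjusted p of 0.05, with a median difference of -0.02. Cd8b1, a CD8 chain that Zbtb7b is known to repress, had 10.52, 10.56, 10.78 and 10.41 in Bcl6 cKO, against 10.90, 11.12, 11.02 and 11.12 in WT. Its groups were separate, with a difference of -0.47 (adjusted p = 0.0541, and adjusted p = 0.146 with sex as a term). Cd8a, the other CD8 chain, was at 6.97 in Bcl6 cKO and 6.99 in WT on average. Both means lie below the 8.25 of Tnnt2, so Cd8a signal was not shown to stand above background. Cd4 was at 12.79 in Bcl6 cKO and 12.88 in WT. Lef1, a factor of naive T cells, had a difference of -0.23 (adjusted p = 0.177).

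Of 13 partners and targets of Zbtb17, 1 was higher and 2 lower at an unadjusted p of 0.05, with a median difference of -0.06. Mxd4, an antagonist of Myc, had a difference of -0.25 (adjusted p = 0.177) and the cell cycle inhibitor Cdkn1b one of -0.39 (adjusted p = 0.347). Of 13 genes of the innate-like program that Zbtb16 directs, 3 were higher and 2 lower, with a median of -0.01. The 2 lower were Klrd1 (means of 5.24 in Bcl6 cKO and 5.73 in WT) and Klrb1c (3.99 and 4.12). These means lie under 5.83, the highest signal of Y-linked genes on arrays where those were low, so neither was shown to stand above background. The adhesion receptor Cd44 had a difference of 0.82 (adjusted p = 0.178) and the interleukin-12 receptor chain Il12rb1 one of 0.30 (adjusted p = 0.181). Of 8 partners and targets of Hic1, none was higher and 1 lower, with a median of -0.05. The integrin chain Itga4 had a difference of -0.48 (adjusted p = 0.141) and the chemokine receptor Ackr3 one of -0.08. Over all genes 10.8% had an unadjusted p under 0.05 in either direction.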

How the data were processed

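The authors deposited log2 signals, 1 per transcript cluster and array (RMA and Partek, per the submitters' processing notes, versions and settings not given in the sources used here). RMA brings arrays to 1 distribution and lowers differences of dim genes. The platform annotation gave 1 symbol to 21789 of 35556 clusters, and the cluster with the highest mean over the 8 arrays stood for a gene, which left 19938 genes. The test was limma's moderated fit (version 3.58.1, under R 4.3.3) without covariate or filter. The Benjamini-Hochberg adjustment ran over every gene, and a call needed an adjusted p under 0.05. Arrays have no read depth, so their number limits the precision. No pair of arrays had identical values in over 3.94% of genes. The fit was tested on simulated data. Sex was read from Kdm5d, Uty and Eif2s3y. Named are members with an unadjusted p under 0.05 or separate groups, the 3 largest differences each way, members with T cell roles or on chromosome 16, and the 2 genes with the smallest p of each other list. Others named (genes beside Zbtb20, cell type markers, Zbtb33, Zbtb38, Zbtb46, Zbtb6, Zbtb43, Zbtb10, Zbtb42, Cd4, Cd8a) were picked after their values were seen. The members and lists were chosen with earlier results of these data known. Alternatives were other variance, weight, scaling, filter and cluster settings, sex, the replicate block and leaving out each array. Promoter sequences are RefSeq's (GRCm38.p6), matched by symbol.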

Additional observations from a re-analysis of the deposited data

Results flagged for a closer look

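Zbtb25 in Bcl6 cKO replicate 3 stood apart from its group. Its signal was 10.17, against 10.05 to 10.07 on the other 3 Bcl6 cKO arrays and 10.08 to 10.17 on the WT arrays, and the gap was 0.833 of the group's range, past the limit of Dixon's test. Of 66 groups examined this was the 1 past the limit, where chance gives about 1 in 20. The test of a difference between the sexes in the effect of genotype passed for none of the 46 members (lowest adjusted p = 0.376 in limma, 5 or 10.9% at an unadjusted p under 0.05, against 11.8% of all genes).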

How the results depend on the processing

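Zbtb4, Zbtb20, Zbtb7b, Zbtb26 and Zbtb11os1 were lower in Bcl6 cKO under all 19 alternatives. The count of members past an adjusted p of 0.05 was 0 under all but 2 kinds of alternative. It was 1 (Zbtb4) at an adjusted p of 0.1, and 0 to 2 without 1 array. The count at an unadjusted p was 8 (17.4%) with array weights, against 13.4% of all genes in that fit, and 8 with sex as a term, against 9.97%. It was 5 to 8 without 1 array, against 7.67% to 12% of all genes. With the filter at the 30th percentile it was 5 of 45 members (11.1%), against 13.7% of the genes kept. With the filter at the median it was 5 of 41 (12.2%), against 17.4%. Of the other pathway genes 2 passed with trend and robust variance (Cd8b1 and Hdac1), 1 with array weights and 1 with either filter (Cd8b1), 2 at an adjusted p of 0.1 (Cd8b1 and Hdac1), and 0 to 2 without 1 array (Il12rb1 and Klrd1 without Bcl6 cKO replicate 1, Cd8b1 without Bcl6 cKO replicate 3). Klrd1 had means of 5.24 in Bcl6 cKO and 5.73 in WT, not shown to stand above background. Over all genes 61 were lower with trend and robust variance, 51 with array weights, 13 after median centring, 42 and 52 with the filters at the 30th percentile and the median of the mean signal. With sex as a term 5 were higher and 5 lower, and at an adjusted p of 0.1 there were 42 and 90. Within the arrays of high and of low Y-linked signal 0 genes passed in either direction in limma, with 1074 (5.39%) and 2955 (14.8%) at an unadjusted p under 0.05, 6 of them members in each. Without 1 array 5 to 39 genes were higher and 5 to 100 lower, with the most without Bcl6 cKO replicate 1 and fewer than with all arrays without any other. The cause of these shifts was not tested. The difference of Bcl6 was 0.27 to 0.49 without 1 array.

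With the replicate block 15 genes were higher and 20 lower, 0 members passed, and 6 members (13%) had an unadjusted p under 0.05, against 12.4% of all genes. The deviations of same-numbered arrays from their group means correlated by 0.0731, 0.206, 0.203 and 0.205, and 3 of 4 arrays of each group correlated best with their own number, a hint of pairing from the data and not the design. Since the first pair lay under 0.1 the numbers were not taken to pair the samples. Of the members and the genes of the lists, the block changed the call of Gpr83 (difference -1.20, adjusted p = 0.00515). Bcl6 did not pass with the block (difference 0.37, limma unadjusted p = 0.000438, adjusted p = 0.0844). The number of arrays limits what differences of the size of that of Zbtb4 or smaller can show. Signal over background limits the 13 dim members and the level of Zbtb20 in Bcl6 cKO.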
